A study of Homo sapiens with 4 samples.

Results

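miR-21 was followed across 4 small RNA libraries as the row hsa-miR-21, without a star in its name, which is 1 of the 1100 mature miRNA names with deposited values. The libraries came from MDA-MB-231, a triple-negative human breast cancer line grown in DMEM with 10% fetal bovine serum, and from MCF-10A, a non-transformed human mammary epithelial line grown in DMEM/F12 with 5% horse serum, insulin, EGF, cholera toxin and hydrocortisone. For each line named in the labels, 1 library was labelled as cells and 1 as exosomes, the RNA-carrying vesicles that cells shed. No group had a replicate, so no difference could be set against a spread between replicates and none was tested. Levels are given as deposited, on a log2 scale of reads per 10000000 miRNA reads plus 1, and whole reads recovered from those values gave library totals of 1254422 to 10930143 miRNA reads.

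miR-21 is among the most studied miRNAs of cancer. Its primary transcript is made at the VMP1 locus, from a promoter that STAT3 and AP-1 can activate, and the loaded strand represses mRNAs of growth and invasion inhibitors such as PDCD4, TPM1 and RECK. It is raised in many breast tumours and is abundant in epithelial cells and in stroma. Small RNA sequencing gives each miRNA as a share of a fixed number of reads, so an abundant name lowers the measured share of every other name in its library.

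The mature sequence and its relatives are shown because the seed, bases 2 to 8, sets which mRNAs a miRNA pairs with. Among 2370 mature names of the RefSeq table (GRCh38.p14), 2 carried the seed of miR-21, namely miR-21-5p (plus strand, chr17:59841273-59841294) and miR-590-5p (plus strand chr7:74191213-74191234). Seeds are in capitals.
miR-21-5p: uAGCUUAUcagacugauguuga
miR-590-5p: gAGCUUAUucauaaaagugcag
Aligned end to end, they had the same base at 8 of their 22 positions, those of the seed included. The hairpin, from the plus strand at chr17:59841266-59841337, is 72 bases long and holds the mature strand, in capitals, at its positions 8 to 29.
MIR21 hairpin: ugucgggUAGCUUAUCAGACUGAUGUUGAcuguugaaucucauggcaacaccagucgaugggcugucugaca
In GENCODE release 29 the hairpin lies inside the VMP1 gene (chr17:59707192-59842255, plus strand). It overlaps an exon of 1 VMP1 transcript, of the retained-intron type, and starts 174 bases past the end of the protein-coding VMP1 transcript that reaches farthest. The name miR-21* in the deposited values is the other arm of this hairpin, and no mature entry for it was in the table.

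Before any comparison, 1 library stood apart, the library labelled MCF-10A cell. Lists of 74 miRNAs of muscle, stroma, endothelium, blood cells, liver, nerve and placenta held 49.7% of its reads. They held 2.37% of the exosomes of MDA-MB-231, 0.0693% of its cells and 0.0815% of the exosomes of MCF-10A. All 74 had 10 or more reads there, while 20, 10 and 11 of them did in the other libraries in that order. The muscle list alone took 12.4% of it, against 0.0181%, 0.000109% and 0.000159% of the other libraries in the same order. The stromal list took 31.8% of it, against 0.651%, 0.000845% and 0.00199%. The 7 epithelial miRNAs (the miR-200 family, miR-205 and miR-203) took 1.01% of this library and 4.41% of MCF-10A exosomes. In MDA-MB-231 they took 0.0232% of the exosomes and 0.0460% of the cells, and 1 of the 7 had 0 reads in those cells. The part of this other-tissue content in each value of the library was not tested, and the share and the differences of miR-21 that rest on this library are also given over the reads outside those lists.

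miR-21 had a level of 21.85 in the exosomes of MDA-MB-231 and 21.94 in its cells, 21.54 in the exosomes of MCF-10A and 19.57 where the label was MCF-10A cell. These are 579457, 2955653, 382565 and 851315 reads. It ranked first in both MDA-MB-231 libraries and in MCF-10A exosomes, and had rank 3 in the library labelled MCF-10A cell, so the name of dominant miRNA holds for 3 of the 4 libraries.

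As a share of reads, miR-21 took 37.8% of the exosomes of MDA-MB-231 (95% interval by Wilson's method 37.7 to 37.9) and 40.3% of its cells (40.2 to 40.3). It took 30.5% of the exosomes of MCF-10A (30.4 to 30.6) and 7.79% where the label was MCF-10A cell (7.77 to 7.80). The rounding of the deposited values alone allows 37.7 to 37.9%, 40.1 to 40.4%, 30.4 to 30.6% and 7.76 to 7.81% in the same order. Without molecular identifiers, PCR copies of 1 molecule count as separate reads, so these intervals cover counting error only, and none covers the spread between cultures. The order of the levels, from MDA-MB-231 cells down through MDA-MB-231 exosomes and MCF-10A exosomes to the library labelled MCF-10A cell, is that of these 4 libraries, and with 1 library a group no neighbours in it can be said to differ beyond a spread between cultures.

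Over the reads outside the other-tissue lists, the share of miR-21 in the library labelled MCF-10A cell was 15.5% (15.5 to 15.5 by counting error only). It had the first rank there by construction, since miR-143 and miR-1, the only names above it, are on the stromal and muscle lists. The same change left 38.7% for the exosomes of MDA-MB-231, 40.3% for its cells and 30.5% for the exosomes of MCF-10A. The share in the library labelled MCF-10A cell was the lowest of the 4 over these reads too. This step takes only the listed names out of the total. Any miR-21 reads of other tissues stay in, so 15.5% is not a share for MCF-10A cells alone.

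**Figure D1:**
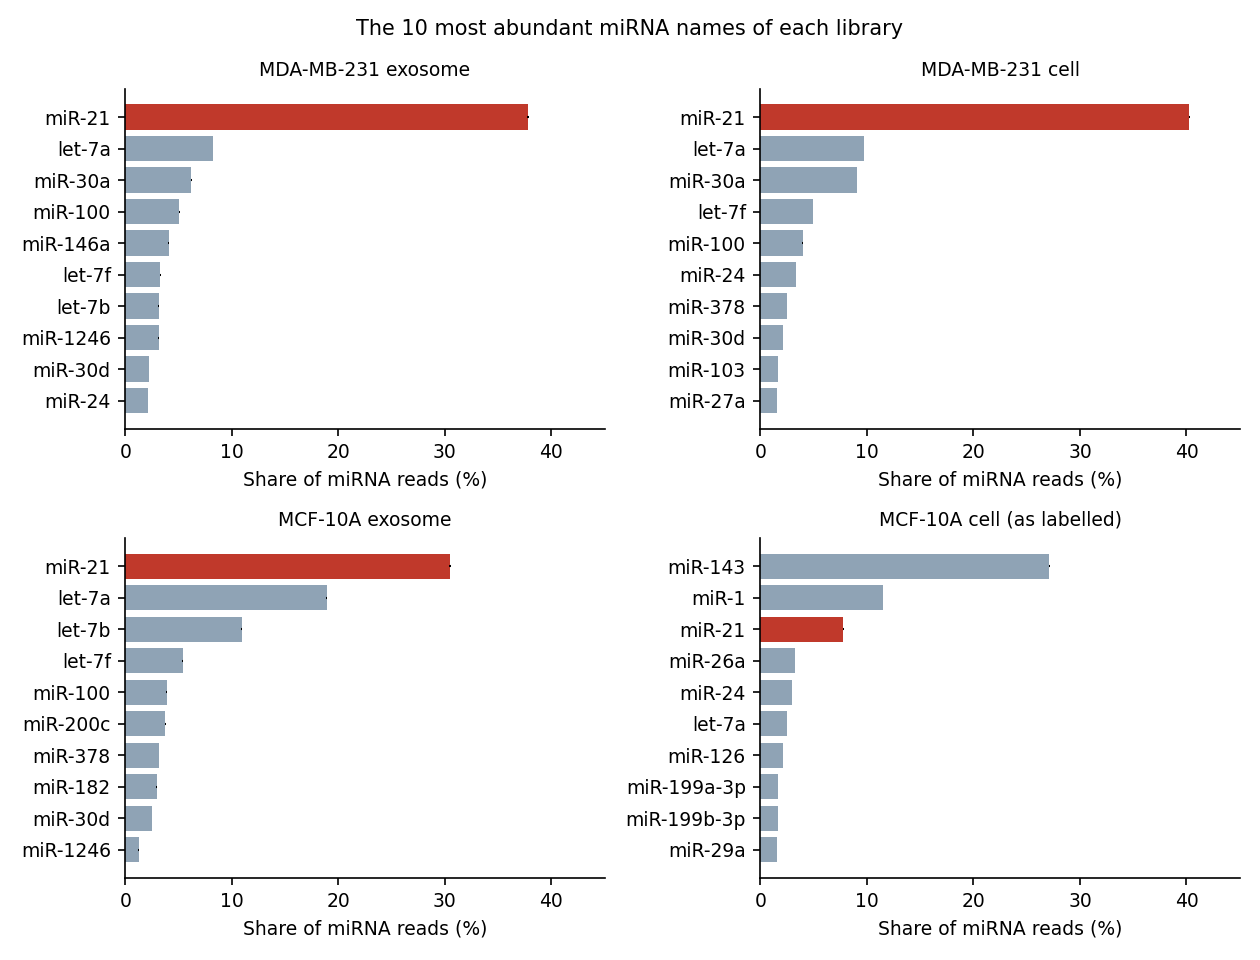
Share of all miRNA reads (%, horizontal axis from 0) of the 10 most abundant names in each library, with miR-21 in red and Wilson 95% intervals as short black lines. miR-21 takes 30.5% to 40.3% in 3 libraries, but 7.79% where the label was MCF-10A cell, with miR-143 and miR-1 above it.

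The distance from miR-21 to the next name differed between libraries. In both MDA-MB-231 libraries the next name was let-7a, a tumour-suppressive miRNA that represses RAS and HMGA2, and miR-21 had 4.59 times its reads in exosomes and 4.14 times in cells. In MCF-10A exosomes let-7a came second as well, with 18.9% of reads, and miR-21 had only 1.61 times as many. In the library labelled MCF-10A cell, miR-143, known from smooth muscle and stromal cells, and miR-1, known from striated muscle, stood above miR-21, which had 0.287 times the reads of miR-143 and 0.678 times those of miR-1.

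Adding up the names below miR-21 in order shows the same difference. In MDA-MB-231 exosomes the next 10 names together were needed to match its reads, and in MDA-MB-231 cells the next 11. In MCF-10A exosomes 3 were enough, since let-7a and let-7b, another let-7 member, took 18.9% and 10.9%. Names above miR-21 or within 10-fold below it numbered 4 for the exosomes of MDA-MB-231, 3 for its cells, 6 for the exosomes of MCF-10A and, where the label was MCF-10A cell, 20.

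Leaving miR-21 out changed the concentration of the MDA-MB-231 libraries most. A count of effective names, the inverse of the summed squared shares, says how many equally abundant names would give the same concentration. It was 6.14 in MDA-MB-231 exosomes with miR-21 and 19.1 over the remaining names, and 5.33 against 14.0 in the cells of that line. For MCF-10A exosomes it went only from 6.67 to 8.48, but it was lower in the library labelled MCF-10A cell without miR-21, at 9.16 against 10.1. Without miR-21, 50% of the reads were reached by 7 names in MDA-MB-231 exosomes and 5 in the cells, in place of 3 in each, whereas MCF-10A exosomes needed 3 names and the library labelled MCF-10A cell 5 either way.

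**Figure D2:**
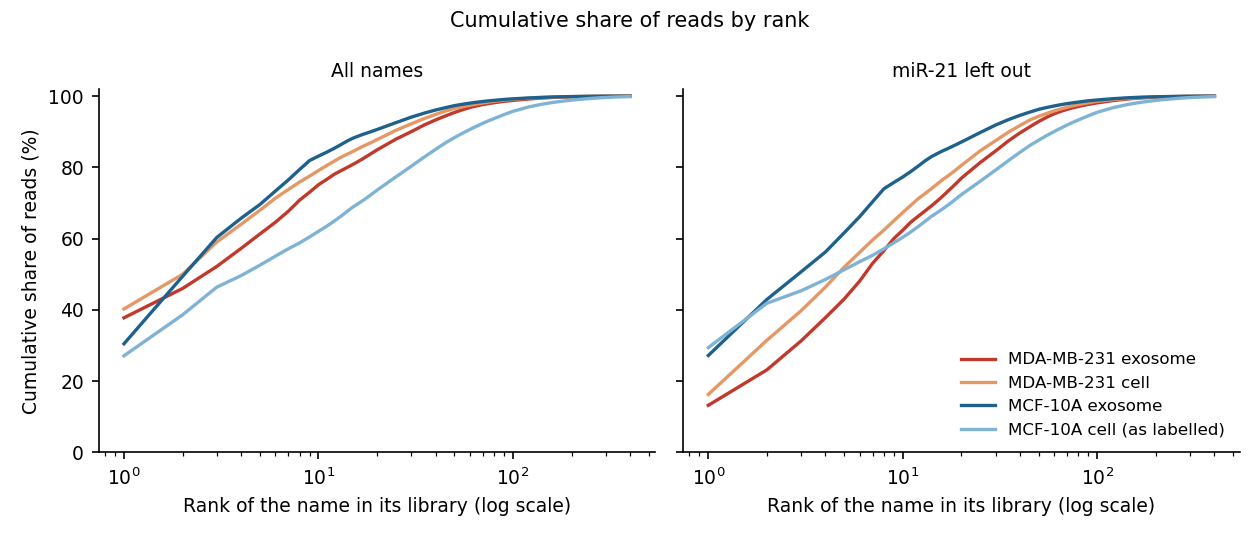
Cumulative share of reads (%, vertical axis) against the rank of the name in its library (horizontal log axis), over all names (left) and with miR-21 left out (right), 1 line per library. With miR-21 the MDA-MB-231 lines start at 37.8% and 40.3%, and without it they start at 13.2% and 16.3%, below both MCF-10A lines.

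The share of miR-21 acts on the level of every other name in its library by the same amount. Scaled over the reads that are not miR-21, all other levels were higher by 0.68 on the log2 scale for the exosomes of MDA-MB-231, 0.74 for its cells, 0.52 for the exosomes of MCF-10A and, where the label was MCF-10A cell, 0.12, apart from the pseudocount of the lowest levels. In linear terms these are 60.7%, 67.4%, 43.9% and 8.45%. The reads left for the other names were 954089, 4384800, 871857 and 10078828, over 507, 565, 435 and 793 other names above 0. A count of 0, which allows up to 3 reads, therefore limits another name to 19.6, 4.09, 23.9 and 2.74 reads per 10000000 of all reads, and to 31.4, 6.84, 34.4 and 2.98 per 10000000 of the reads that are not miR-21.

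In a comparison of libraries only the difference of these amounts counts. It was 0.16 (log2) between the exosomes of the lines, 0.63 between MDA-MB-231 cells and the library labelled MCF-10A cell, −0.06 between MDA-MB-231 exosomes and cells, and 0.41 for MCF-10A exosomes against the library labelled MCF-10A cell. By these amounts every other name moved toward the first library of the pair, or away from it where negative, once miR-21 left the total. The amount is the same for all names within a comparison.

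Between the exosomes of the lines, leaving miR-21 out shifted the other names by about 0.16, apart from those at low levels. Calls thus changed for names near the line. At low levels the pseudocount made the shift unequal, as for miR-1248, which went from 1.90 to 2.09. A name was called higher or lower at a 4-fold difference (2 on the log2 scale), where either library had at least 10 of its reads per 10000000. Of the 504 other names, 48.4% were called with miR-21 in the total (148 higher and 96 lower in MDA-MB-231) and 49.4% without it (155 higher, or 30.8%, and 94 lower, or 18.7%). The call of 9 names changed, but of 32 with a pseudocount of 10 and of 15 at a 2-fold call. Of the 4 with the highest mean level, miR-342-3p, of an EVL intron, went from −2.13 to −1.97 and was no longer lower, while miR-877 (1.91 to 2.07), miR-130b (1.86 to 2.02) and miR-625 (1.86 to 2.03, with 27 against 6 reads) became higher. All 4 lay close to the 4-fold line under both totals. In these libraries 1 read is worth 6.52 (MDA-MB-231) and 7.97 (MCF-10A) per 10000000, so names with very few reads passed the minimum. Changed calls of less abundant names rested on few reads, such as miR-147b (10 against 2) and miR-939 (5 against 1).

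In MDA-MB-231 cells against the library labelled MCF-10A cell, where the shares of miR-21 were farthest apart, the call of 44 of 664 names changed. Those called went from 71.7% (115 higher and 361 lower) to 72.0% (138 higher, or 20.8%, and 340 lower, or 51.2%), so the number hardly moved while 23 names became higher and 21 were no longer lower. The abundant let-7a went from 1.95 to 2.58 and miR-30d, a member of the miR-30 family, from 1.97 to 2.60, which put both past the 4-fold line. miR-106b, of the cluster in an MCM7 intron, went from 1.44 to 2.07 and also became higher, and miR-130a went from −2.39 to −1.76 and was no longer lower. With upper-quartile scaling this comparison had 210 higher and 283 lower names, and over the reads outside the other-tissue lists 71 and 404.

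In MDA-MB-231 exosomes against their cells, with nearly equal shares of miR-21, 8 of 498 names changed their call, but 31 did with no minimum and 24 with a pseudocount of 10. The names called went from 35.7% (111 higher and 67 lower) to 36.9% (110 higher, or 22.1%, and 74 lower, or 14.9%). miR-106b went from −1.98 to −2.04 and miR-29a*, the star arm of miR-29a, from −1.97 to −2.03, and both were then lower in exosomes. miR-129-5p (−1.95 to −2.01) and miR-331-3p (−1.95 to −2.01, with 11 against 206 reads) did the same.

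In MCF-10A exosomes against the library labelled MCF-10A cell, 29 of 660 names changed. Those called went from 72.7% (102 higher and 378 lower) to 71.7% (113 higher, or 17.1%, and 360 lower, or 54.5%). miR-27b went from −2.31 to −1.90 and miR-125b, the homologue of lin-4, from −2.07 to −1.66, and neither was lower any longer. miR-1975, a name later linked to a Y RNA (1.94 to 2.35), and miR-452, of a GABRE intron (1.67 to 2.08), became higher in exosomes. Upper-quartile scaling gave 204 higher and 294 lower names here, and the reads outside the other-tissue lists 67 and 427.

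miR-21 itself differed little between the exosomes of the lines. It was 0.31 higher on the log2 scale in MDA-MB-231 exosomes than in MCF-10A exosomes, a 1.24-fold difference (exact conditional binomial 95% counting interval 1.23 to 1.24). The rounding of the deposited values alone allows 0.3 to 0.32 on the log2 scale, which is wider than the counting interval. Of the 504 other names, 267 had a larger difference in this direction and 237 a smaller one, and the median over all 505 names was 0.59. miR-21 thus stood near the middle of the names, and its excess in MDA-MB-231 exosomes depended on the scaling, being 0.03 with TMM factors and −0.36 with upper-quartile scaling.

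Between the exosomes and the cells of MDA-MB-231 the levels of miR-21 were nearly equal. The exosome level was lower by 0.09 on the log2 scale, a 1.06-fold difference (1.06 to 1.07). Rounding alone allows −0.1 to −0.08 on the log2 scale. The median over the 499 names was −0.09 as well, and 248 of the 498 other names had a larger and 249 a smaller difference. The direction for miR-21 stayed the same under every scaling computed, from −0.06 to −0.44.

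The remaining comparisons rest on the library labelled MCF-10A cell. miR-21 was 2.37 higher in MDA-MB-231 cells, 5.17-fold (5.16 to 5.18), and 1.97 higher in MCF-10A exosomes, 3.92-fold (3.90 to 3.93), which is just under the 4-fold line. The rounding of the deposited values alone allows 2.36 to 2.38 and 1.96 to 1.98, which is wider than these counting intervals. In these comparisons the median over all names was −2.83 (665 names) and −3.27 (661 names), and 91 and 102 names had a larger difference than miR-21. The other-tissue lists took 49.7% of that library. Over the reads outside them, the difference for miR-21 was 1.38 for MDA-MB-231 cells and 0.98 for MCF-10A exosomes, both under 4-fold. Any miR-21 reads of other tissues remain in these differences. Upper-quartile scaling gave 4.54 and 4.46.

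**Figure D3:**
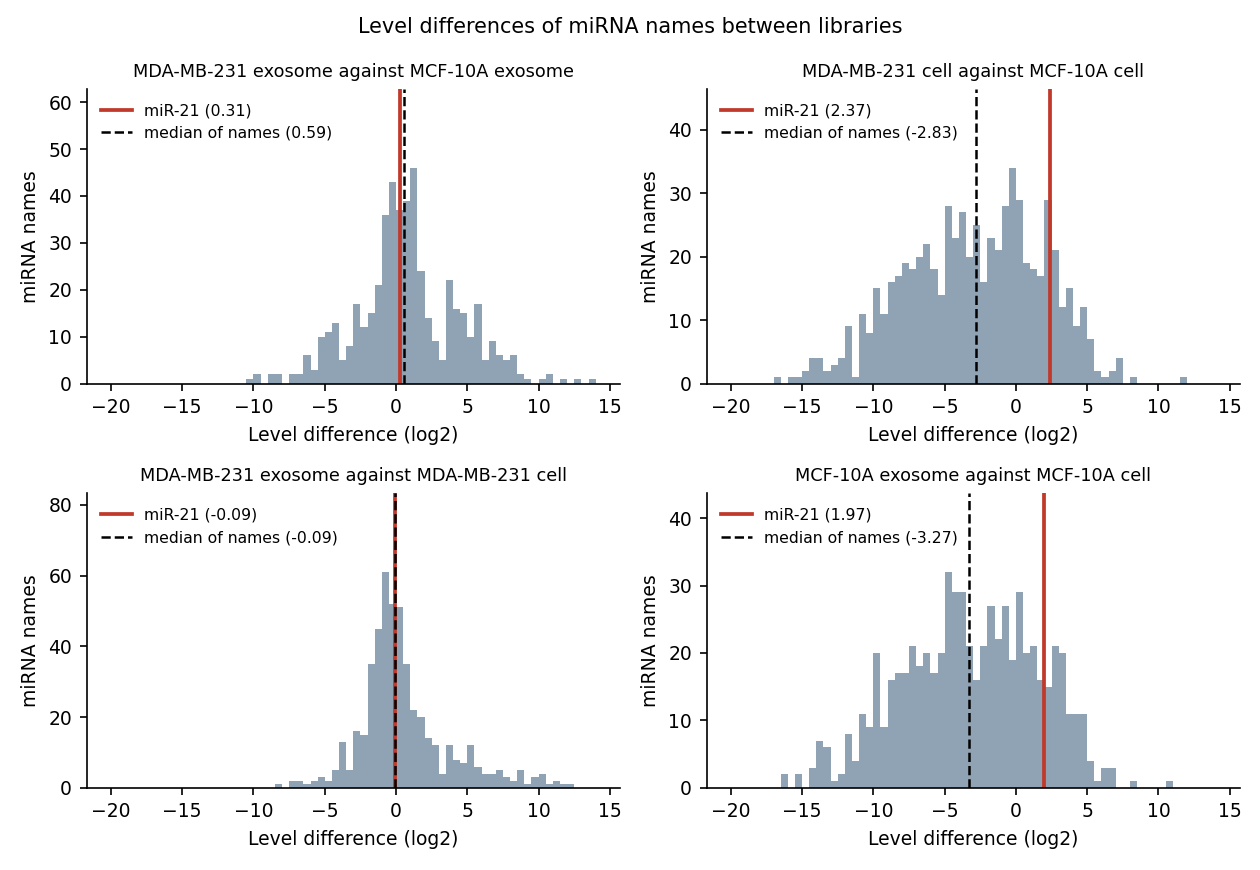
Number of miRNA names (vertical axis) by their level difference between libraries (log2, horizontal axis) in 4 comparisons, for names that reach 10 reads per 10000000 in either library. The red line is miR-21 and the dashed line the median of the names, which lie together in MDA-MB-231 exosomes against cells (both −0.09) and far apart where the library labelled MCF-10A cell is used.

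**Figure D4:**
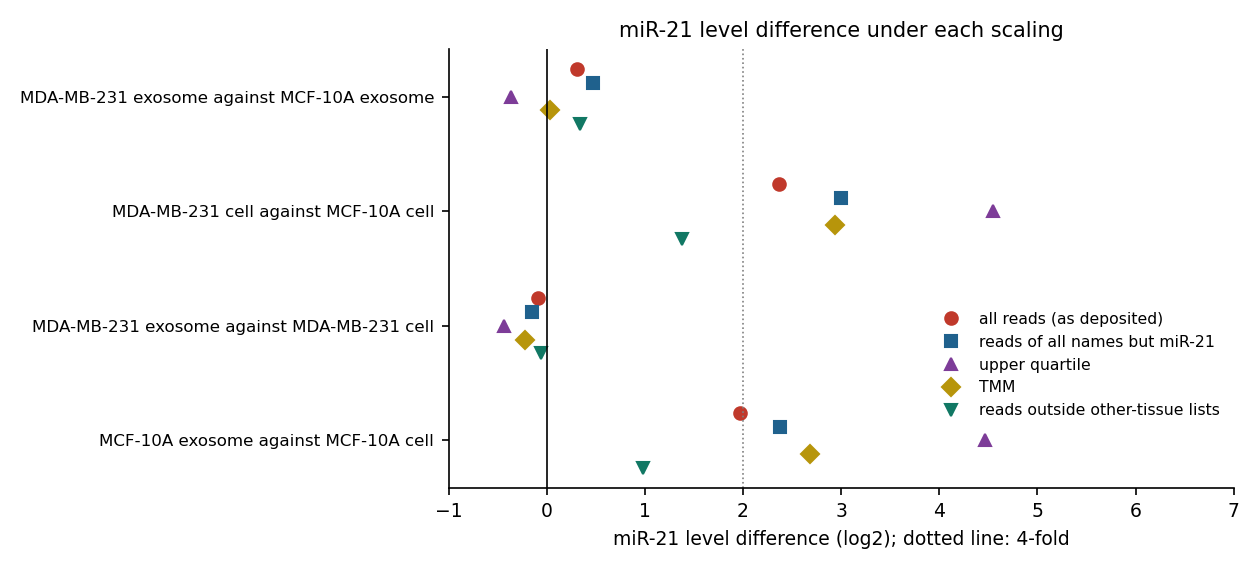
Level difference of miR-21 (log2, horizontal axis) in each comparison under 5 scalings, 1 symbol each, with a solid line at 0 and a dotted line at 4-fold. Between MDA-MB-231 exosomes and MCF-10A exosomes the symbols lie on both sides of 0 (−0.36 to 0.47), and against the library labelled MCF-10A cell they spread over 0.98 to 4.54.

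Ratios of miR-21 to another name within a library do not depend on the total. They were formed for the 21 other names among the 10 most abundant of any library. The ratio to miR-30d was 17.0 for the exosomes of MDA-MB-231, 19.3 for its cells, 12.1 for the exosomes of MCF-10A and, where the label was MCF-10A cell, 14.6. Against let-7a the ratios were 4.59, 4.14, 1.61 and 3.10 in the same order. Both were lowest in MCF-10A exosomes.

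Other names moved far more against miR-21. The ratio to let-7b was 12.1 in MDA-MB-231 exosomes, 81.6 in the cells of that line and 2.79 in MCF-10A exosomes. The ratio to miR-1246, a name later linked to U2 RNA, was 12.1 in MDA-MB-231 exosomes and 1370 in the cells. miR-30a, which is abundant in MDA-MB-231, gave 6.11 and 4.44 in the exosomes and cells of that line, but 28.4 in MCF-10A exosomes. Of the 21 ratios, 7 were higher and 14 lower in the exosomes of MDA-MB-231 than in those of MCF-10A, and 9 were higher and 12 lower in MDA-MB-231 exosomes than in cells. miR-21 thus had no common direction against the other abundant names in either comparison. In MDA-MB-231 cells 16 ratios were higher and 5 lower than in the library labelled MCF-10A cell. In MCF-10A exosomes 12 were higher and 9 lower than in that library. However, miR-143, miR-1, miR-26a, miR-126, miR-199a-3p, miR-199b-3p and miR-29a entered the set only through their high levels in that library. The choice of names thus favoured low ratios there, and miR-199a-3p and miR-199b-3p have the same values. The counts against that library therefore give no direction for miR-21. The same names also weigh on the other counts. Each of them had a lower ratio in the exosomes of MDA-MB-231 than in those of MCF-10A. All but miR-29a had a lower ratio in MDA-MB-231 exosomes than in cells.

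miR-21*, the other arm of the hairpin, was far scarcer than the mature strand. Its level was 10.06 (163 reads) for the exosomes of MDA-MB-231, 11.52 (2157 reads) for its cells, 9.26 (77 reads) for the exosomes of MCF-10A and, where the label was MCF-10A cell, 8.72 (460 reads). It ranked 140th, 89th, 143rd and 294th of the names. miR-21* was 2.75-fold lower in MDA-MB-231 exosomes than in cells (2.36 to 3.26), where miR-21 was nearly level, and 1.74-fold higher there than in MCF-10A exosomes (1.31 to 2.30). With upper-quartile scaling the latter difference was 0.13 on the log2 scale in place of 0.80.

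The ratio of miR-21 to miR-21* was higher in the exosomes of each line than in the library labelled as its cells. It was 3555 (3049 to 4171) in MDA-MB-231 exosomes and 1370 (1314 to 1430) in MDA-MB-231 cells, 2.59-fold apart (2.21 to 3.04, a counting interval on the log scale). It was 4968 (3975 to 6296) in MCF-10A exosomes and 1851 (1689 to 2032) in the library labelled MCF-10A cell, 2.68-fold apart (2.11 to 3.42). Both intervals lie above 1, but they hold no spread between cultures. The second comparison rests on the library in which miRNAs of other tissues had their largest share.

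Other arm pairs did not share this direction throughout. Of 157 names with a star partner, 27 had at least 10 reads of both arms in every library. The ratio of a name to its star arm was, in MDA-MB-231, higher in exosomes than in cells for 17 of the 27 and lower for 10, with a median log2 change of 0.68, and for miR-21 the change was 1.38, with 8 pairs above it. In MCF-10A exosomes it was higher than in the library labelled MCF-10A cell for 11 and lower for 16, with a median of −1.09, and for miR-21 the change was 1.42, with 4 pairs above it. It was higher in exosomes in both comparisons for 6 pairs, miR-21 among them, and lower in both for 5. The ratio of miR-21 to its star arm was itself among the highest of the 27 pairs, with 2, 1, 1 and 0 pairs above it in the same order of libraries as its levels, where the median ratios of the 27 were 18.3, 18.4, 12.8 and 38.3.

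**Figure D5:**
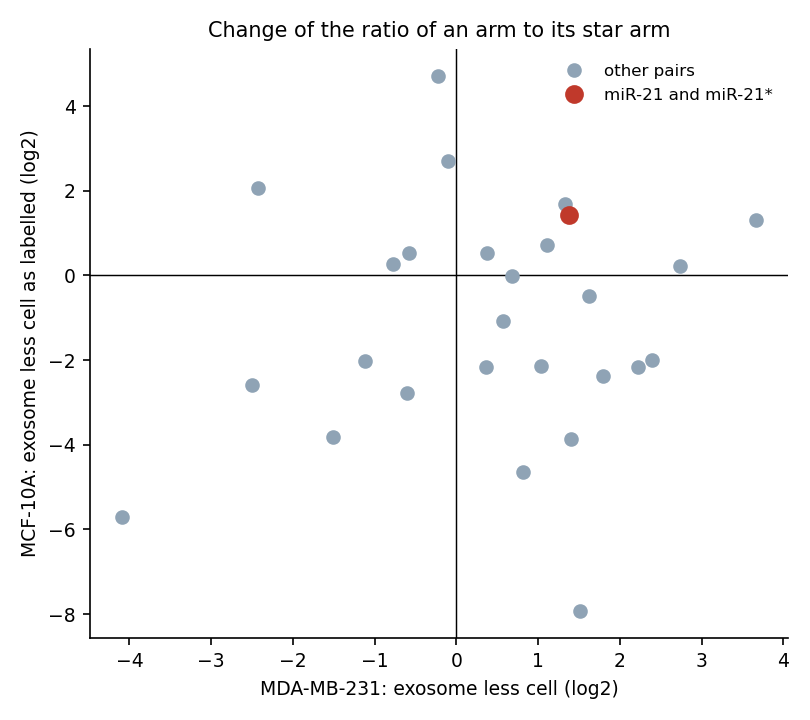
Change of the ratio of a name to its star arm, exosome less cell on the log2 scale, in MDA-MB-231 (horizontal axis) and in MCF-10A against the library labelled MCF-10A cell (vertical axis), for 27 pairs. miR-21 (red) lies at 1.38 and 1.42, in the quadrant with 6 of the 27 pairs.

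miR-590-5p, which has the seed shown above in common with miR-21, was scarce in every library. It had 4 reads for the exosomes of MDA-MB-231 (level 4.76), 133 for its cells (7.51), 22 for the exosomes of MCF-10A (7.46) and, where the label was MCF-10A cell, 207 (7.57). Of the reads with this seed, miR-21 thus supplied 99.999% in MDA-MB-231 exosomes and 99.976% of them where the label was MCF-10A cell, the lowest of the 4. miR-590-5p was 6.73-fold lower in MDA-MB-231 exosomes than in cells (2.65 to 25.9) and 6.50-fold lower than in MCF-10A exosomes (2.28 to 26.8), both on 4 reads, while miR-21 was within 1.24-fold in these comparisons.

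A list held 13 other miRNAs reported as oncogenic in breast, of which miR-9 and miR-520c-3p are also on the neural and placental lists. They took 2.82% of the reads for the exosomes of MDA-MB-231, 3.99% for its cells, 4.21% for the exosomes of MCF-10A and, where the label was MCF-10A cell, 3.25%, and miR-21 had 13.4, 10.1, 7.25 and 2.39 times their summed reads. Between the exosomes 3 of 11 were higher in MDA-MB-231 and 2 lower, where 29.4% and 19% of all names were, with a median of 0.99. In MDA-MB-231 exosomes against cells 2 of 11 were higher and 1 lower, where 22.3% and 13.5% were. Both counts are near the background.

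Of its members with the highest mean level, miR-27a, of the miR-23a cluster, stood at 16.37, 17.25, 15.38 and 16.94 in the same order. miR-103, of a PANK intron, stood at 16.21, 17.34, 15.45 and 15.07. miR-182, of the miR-183 cluster, was highest in MCF-10A exosomes, at 15.02, 15.38, 18.16 and 11.29. The most abundant of the 3 in any library, miR-182 in MCF-10A exosomes, had 10.4-fold fewer reads than miR-21 there. Against the library labelled MCF-10A cell, 2 of the 13 were higher and 6 lower in MDA-MB-231 cells, where 17.3% and 54.4% of all names were, with a median of −1.54 beside −2.84 over all other names. In MCF-10A exosomes 2 were higher and 6 lower, where 15.5% and 57.3% were, with a median of −1.56 beside −3.28.

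The names whose levels over the 4 libraries, each less its own mean, lay nearest to those of miR-21 were miR-30d, miR-221*, miR-99b, let-7f and miR-17. Their root mean square distances were 0.25, 0.25, 0.34, 0.36 and 0.37 on the log2 scale, against a median of 1.32 over the 76 names with at least 1000 reads per 10000000 in every library. All 5 had their lowest level in the library labelled MCF-10A cell, at 15.70, 9.99, 13.99, 16.59 and 13.10, as miR-21 did. They were chosen for this pattern, so the shared low point comes with the choice. Since the points share the library total, this likeness describes 4 values a name and no more. Without that library miR-221* and miR-99b stayed among the nearest 5 of 85 names, at places 3 and 5, while miR-30d fell to place 11, let-7f to 29 and miR-17 to 28.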

How the data were processed

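The labels' protocols give small RNAs of 17 to 52 nt and a Genome Analyzer IIx. The submitters' processing notes name Novoalign, edgeR and hg18 without roles or versions. Exosome purification and the assignment of reads to names are not given in the sources used here. All values the authors deposited are on a log2 scale, to 2 decimals. No header states their unit, which was inferred: each library, raised back from log2 with 1 subtracted, sums to about 10000000, and its low values are multiples of a constant worth of 1 read. That worth gave 1533546, 7340453, 1254422 and 10930143 reads (MDA-MB-231 exosomes and cells, MCF-10A exosomes and cells). Of the names above 0, 40.1% to 65.7% had a rounding interval under 0.5 reads, and 100% of those held a whole number. Larger read numbers are known to within 0.347%. Differences are of deposited values (pseudocount 1). TMM factors were computed in Python 3.11.15 from their published definition (numpy 2.4.6, scipy 1.17.1). The read recovery was tested on simulated data.

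miR-21 and the lists were chosen with earlier results of these data known. Named miRNAs are miR-21, its star arm and seed relative, the 10 leading names of each library, the 5 nearest patterns, up to 4 names per comparison whose call changed (by mean level) and the 3 leading members of each list described. A further list is not reported here. In 11 sets, 28 names have the same values in all libraries and were counted 1 by 1.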

Additional observations from a re-analysis of the deposited data

Results flagged for a closer look

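The exosome-to-cell difference of miR-21 was −0.09 in MDA-MB-231, which is nearly level, and 1.97 in MCF-10A exosomes against the library labelled MCF-10A cell. These are 2.06 apart on the log2 scale (2.04 to 2.08 by the rounding of the values). miR-21* went opposite ways, −1.46 and 0.54, which are 2.0 apart. With 1 library a group neither difference was tested, and both rest on the library labelled MCF-10A cell, in which other-tissue lists held 49.7% of the reads. Over the reads outside those lists the difference for miR-21 was 1.04 (−0.056 and 0.98), with MDA-MB-231 again nearly level. For miR-21* it was 0.98, but there miR-21* was lower in exosomes in both comparisons (−1.43 and −0.45) and no longer went opposite ways. The part of those reads in it was not tested otherwise.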

How the results depend on the processing

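The share of miR-21 was within its interval with identical names counted once in 3 libraries, and was 7.94% in the library labelled MCF-10A cell. Outside the other-tissue lists it was 38.7% for the exosomes of MDA-MB-231 and 15.5% where the label was MCF-10A cell, and within its interval in the other libraries. The difference of miR-21 (log2) is given in the order MDA-MB-231 against MCF-10A exosomes, MDA-MB-231 cells against the library labelled MCF-10A cell, MDA-MB-231 exosomes against cells, MCF-10A exosomes against the library labelled MCF-10A cell, and the difference of the last pair. It was 0.47, 3.0, −0.15, 2.38 and 2.53 over the reads of all names but miR-21, −0.36, 4.54, −0.44, 4.46 and 4.90 with the upper quartile, 0.032, 2.94, −0.22, 2.69 and 2.90 with TMM factors, and 0.34, 1.38, −0.056, 0.98 and 1.04 outside the other-tissue lists. The sign for the exosomes of the lines turned with the upper quartile, which moved the median of all other names from 0.595 to −0.07 there, and from −2.84 to −0.72, −0.095 to −0.44 and −3.28 to −0.82 in the other comparisons; the cause was not tested. Names called without miR-21 in the total numbered 184 in MDA-MB-231 exosomes against cells, 122 with a minimum of 50 reads per 10000000 and 308 at a 2-fold call, and the counts of the other comparisons stayed within 1.5 times. The arm ratios lay within their counting intervals at both ends of the rounding. The number of names whose call changed in MDA-MB-231 exosomes against cells was 8, but 31 with no minimum and 24 with a pseudocount of 10, and between the exosomes of the lines 9, but 32 with that pseudocount and 15 at a 2-fold call. Leaving out the library labelled MCF-10A cell for the likeness to miR-21, and the other scalings of miR-21*, were chosen after seeing the data. For miR-21*, in the order given above, the values were 0.96, 3.43, −1.52, 0.95 and 2.47 over the reads of all names but miR-21, 0.13, 4.97, −1.81, 3.03 and 4.84 with the upper quartile, 0.52, 3.37, −1.59, 1.25 and 2.84 with TMM factors, and 0.83, 1.81, −1.43, −0.45 and 0.98 outside the other-tissue lists. The sign in MCF-10A exosomes against the library labelled MCF-10A cell thus turned with the last of these. With 1 library a group, no replicate could be left out and no paired analysis was possible because no group had a second library.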
